A study of Mus musculus with 36 samples.

Results

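The 8 genes described here encode the enzymes and regulators of polyamine synthesis, and they were chosen by name from the 55487 genes of the deposited count table: Odc1, Oaz1, Oaz2, Azin1, Amd1, Srm, Sms and Sat1. All 8 were counted in every library, and all 8 passed the filter on low counts in every fit. Across the polysome gradient Azin1 was the exception among them. In levels scaled between libraries it was higher in the polysome than in the monosome fraction in controls of both crosses. Oaz1, Oaz2, Amd1, Sms, Odc1 and Sat1 were lower there, Oaz1 by 10.5-fold and Sat1 by 10.4-fold in LoF controls. Without scaling the direction for Azin1 was not the same in all control pools. Between genotypes, Odc1 and Srm rose in the monosome fraction of the T532M mutants, and no other member passed the threshold in a genotype comparison. Odc1 was also higher in T532M input, at a log2 fold change of 0.42. Its cHet libraries were all above the control libraries there, as were those of 6.65% of all genes. The input fold change of Odc1 did not pass by edgeR (adjusted p = 0.181), by which 1 gene passed in this comparison. It passed by DESeq2 (adjusted p = 0.00224), by which 123 genes passed. The Odc1 rise was thus not shown to be particular to monosomes. With 1 pool left out at a time the monosome call of Odc1 held in 1 of 6 fits and that of Srm in 2 of 6. Both of these calls were also lost with no filter on low counts.

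Polyamines (putrescine, spermidine and spermine) are small organic cations that bind RNA and ribosomes and that dividing cells need in large amounts. Odc1 makes putrescine from ornithine, Amd1 supplies the aminopropyl donor, and Srm and Sms add aminopropyl groups to give spermidine and then spermine. The pathway is known for feedback at the ribosome: the antizymes Oaz1 and Oaz2, which bind Odc1 and send it to the proteasome, are made in full only when ribosomes shift reading frame, a step that polyamines favour. Azin1 is an Odc1-like protein without enzyme activity that binds antizyme, and Sat1 acetylates spermidine and spermine for export or back-conversion.

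The study compared 2 kinds of Ddx3x allele with their controls in RNA parted by ribosome load. Ddx3x encodes a DEAD-box RNA helicase that acts in translation initiation. Cortices of female mouse embryos at E14.5 were lysed as pools of 2 embryos of 1 genotype, an input was kept, and the rest was spun through a gradient of 15 to 50% sucrose taken off in 12 fractions, which separates RNAs by how many ribosomes sit on them. The sources used here do not give which gradient fractions make up the monosome and the polysome sample. In the LoF cross the mutants (cHet) were Emx1-Cre/+;Ddx3x lox/+ and the controls Ddx3x lox/+, with no Cre. The T532M cross had Emx1-Cre/+;Ddx3x-T532M lox/+ embryos as cHet and Emx1-Cre/+ embryos as controls, so both of its genotypes carried Cre. In the LoF cross effects of Cre and of the allele cannot be told apart. Emx1-Cre is active in dorsal telencephalic progenitors and the cells they give rise to, and all other cells of a pool keep their alleles. Each genotype of each cross had 3 pools with 3 fractions each, which gives 12 groups of 3 and 36 libraries. Libraries of 1 group with the same number are taken as 1 pool, because the protocol draws input and gradient from 1 lysate.

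Libraries held 36999365 to 57935512 read pairs in genes. Levels are given as CPM, counts relative to a library's total after TMM scaling over all 36 libraries. This scaling multiplied the totals by 0.578 to 0.731 in polysome, 1.15 to 1.27 in monosome and 1.21 to 1.27 in input libraries. Equal CPM in 2 fractions is thus not an equal share of their reads. Fold changes are from edgeR's quasi-likelihood test with Benjamini-Hochberg adjusted p-values over all genes of a fit, and "past the threshold" means an adjusted p under 0.05. The SE given with edgeR values was derived from the test, as the absolute log2 fold change divided by the square root of the F statistic. A value in a fraction is relative to that library's scaled total, so the amount of RNA per fraction was not measured. The place of 0 between fractions is set by this scaling. In these bulk samples fewer cells of a type and less RNA per cell cannot be told apart. All 7 dorsal cortex markers were detected, at a summed 1924 to 2426 CPM in LoF cHet and 2083 to 2331 CPM in LoF control input, and at 1924 to 2277 CPM in T532M cHet and 2289.8 to 2565 CPM in T532M control input, without overlap in the T532M cross. Ddx3x, counted over its whole span, was at 61.1 to 115 CPM in LoF cHet and 88.8 to 153 CPM in LoF control input, and at 167 to 241 CPM in T532M cHet and 49.0 to 148 CPM in T532M control input. In polysomes it was at 1688 to 2196 CPM in LoF cHet and 2084 to 2576 CPM in LoF controls, and at 4078 to 5941 CPM in T532M cHet and 2339 to 3521 CPM in T532M controls. Its log2 fold change was -0.53 in LoF monosomes and 0.97 in T532M input, and it passed in no genotype comparison. The choroid plexus gene Ttr was above 10 CPM in the input of LoF cHet pool 1, LoF control pools 1 and 3, and T532M cHet pool 1, and at most 2.28 CPM in the input of the other 8 pools.

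The frameshift sites of both antizymes, for which these genes are known, are shown first, with short upstream reading frames of 4 other members. Upstream frames were picked by length and not by a known role. Those shown begin with ATG, have at most 30 bases and end before the main start codon. Frames with another start codon were not searched. All sequences were read from GENCODE M21 transcripts on GRCm38. In the antizyme windows the capitals mark the last codon of the first frame and its stop codon, TGA. The Oaz1 window is at chr10:80828280-80828306 and the Oaz2 window at chr9:65686257-65686283, both on the plus strand.
Oaz1 frameshift window: cctcggtggtgcTCCTGAtgtccctca
Oaz2 frameshift window: cctctgtggtgcTCCTGAtgcccctca
Both windows hold the same TCCTGA. Oaz1 had 68 codons before this stop and 159 open codons after a shift of 1 base forward, and Oaz2 had 32 and 157. The annotated transcripts leave out the first base of the stop codon, and it was read back from another transcript of the same gene.

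The upstream frames are shown with their ATG and stop codon in capitals. Odc1 and Sat1 have 2 upstream ATGs each, of which the first is shown. The second Odc1 frame, with 10 codons before its stop and 33 bases in all, was over the length limit. The frames shown for Odc1 (chr12:17544921-17544947, plus strand), Amd1 (chr10:40302155-40302175, minus strand), Sat1 (chrX:155216271-155216285, minus strand) and Azin1 (chr15:38514482-38514505 and chr15:38501507-38501536, minus strand) each end before the main start codon.
Amd1 upstream frame: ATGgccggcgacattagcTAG
Odc1 upstream frame: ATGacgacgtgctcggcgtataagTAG
Sat1 upstream frame: ATGgtgccagccTGA
Azin1 upstream frame 2 of 3: ATGatagggggttccatctccTAA
Azin1 upstream frame 3 of 3: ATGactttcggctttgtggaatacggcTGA
The Amd1 frame begins 12 bases from the transcript's 5′ end and has 6 codons before its stop. It is known to stall ribosomes in the presence of polyamines. Srm, Oaz1 and Oaz2 had no ATG upstream of the main start, and Sms had 4. Of 14098 genes with an annotated coding transcript tested in the LoF cross, 49.9% had at least 1 upstream ATG, so such an ATG is common.

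In control polysomes set against monosomes, 7 of the 8 members were past the threshold in the LoF cross, 1 higher and 6 lower, and all 8 in the T532M cross, 1 higher and 7 lower. Most genes differed between these fractions: 81.2% of the 18556 genes tested in the LoF cross passed (36.4% as higher, 44.9% as lower), as did 79.9% of 18243 in the T532M cross (36% as higher, 43.9% as lower). The number of members past the threshold is thus near the background. Their median log2 fold change was -1.82 in LoF controls and -1.81 in T532M controls, beside -0.31 and -0.31 over all genes.

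**Figure D1:**
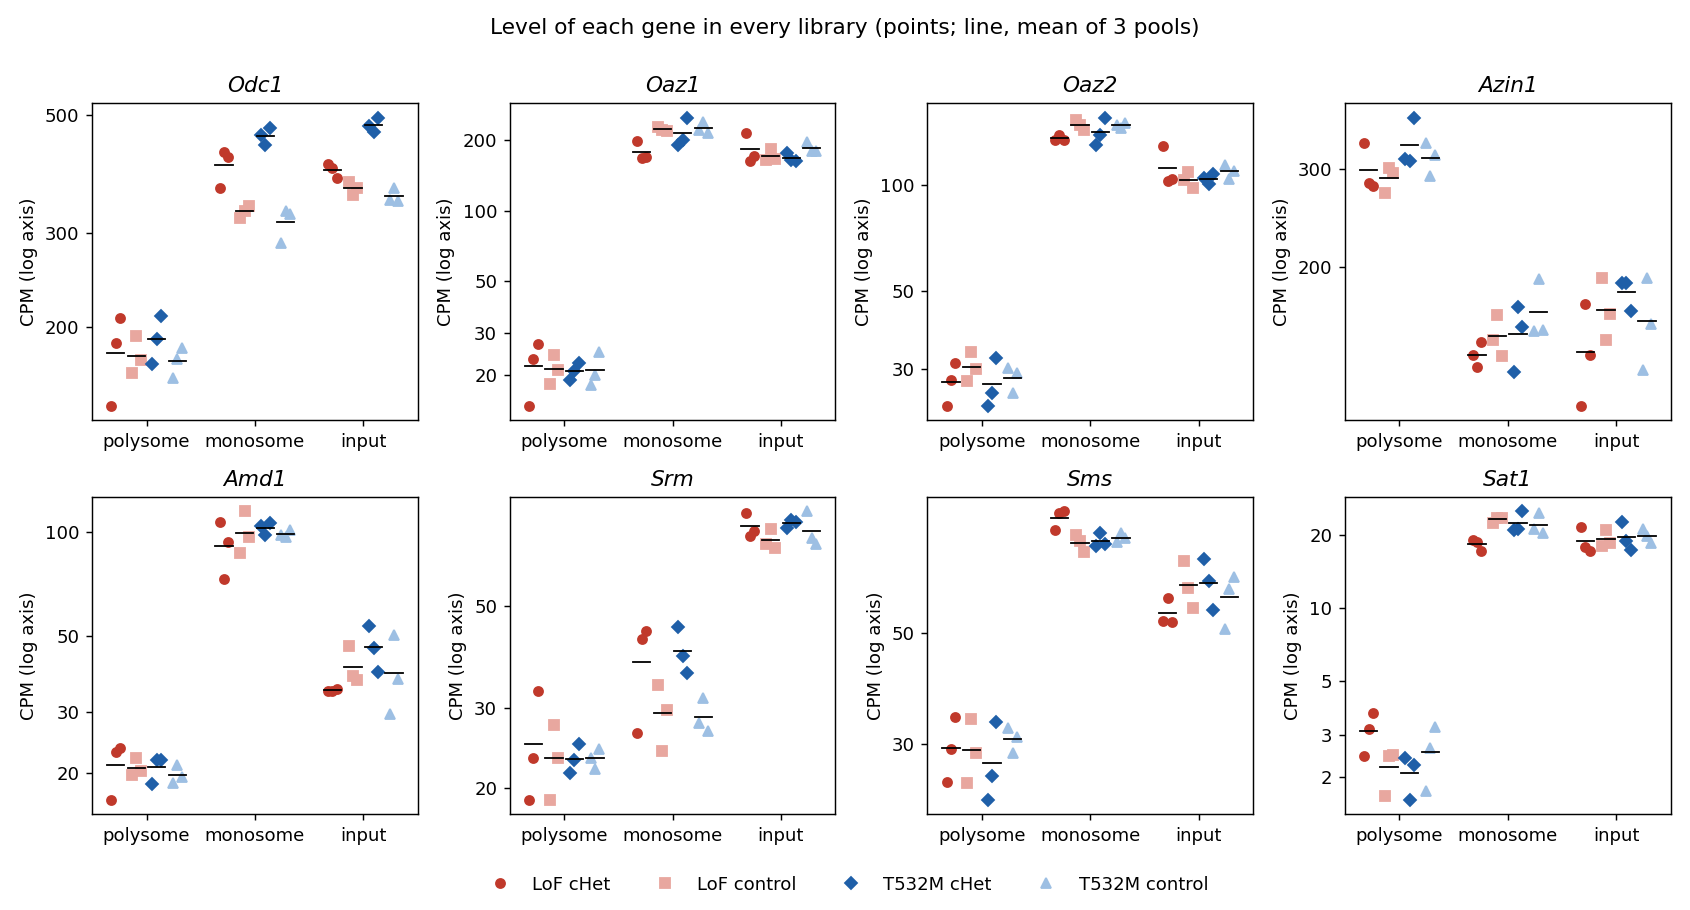
Level of each of the 8 genes in all 36 libraries, in CPM on a log axis, by fraction (polysome, monosome, input) and group. Points are pools and lines are means of 3 pools. Azin1 is higher in the polysome fraction, Srm is highest in input, and Amd1 is highest in the monosome fraction.

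Odc1 (ENSMUSG00000011179.8, chr12:17544794-17551505, plus strand), the first and rate-limiting enzyme, was at 163, 192 and 173 CPM in LoF control polysomes against 321, 330.1 and 338 CPM in monosomes. In T532M controls it was at 160.1, 174 and 182 CPM in polysomes against 287, 329 and 326 CPM in monosomes. The fractions did not overlap in either cross. Polysome over monosome, Odc1 was at -0.90 (SE 0.118, adjusted p = 8.61e-07) on the log2 scale in LoF controls and -0.85 (SE 0.0988, adjusted p = 2.64e-07) in T532M controls.

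Among the regulators, the antizymes and their inhibitor lay on opposite sides. Oaz1 (ENSMUSG00000035242.15, chr10:80826656-80829290, plus strand) was at 18.3, 24.2 and 20.96 CPM in LoF control polysomes against 227, 219.8 and 218 CPM in monosomes. In T532M controls it was at 18.1, 19.9 and 24.95 CPM in polysomes against 219.9, 239 and 213 CPM in monosomes. Its lowest monosome library was several times above its highest polysome library. The log2 fold change was -3.39 (SE 0.178, adjusted p = 1.28e-12) in LoF controls and -3.40 (SE 0.134, adjusted p = 1.35e-13) in T532M controls.

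Oaz2 (ENSMUSG00000040652.16, chr9:65668001-65690300, plus strand), the second antizyme, ranged from 25.7 to 33.6 CPM in control polysomes and from 143 to 153 CPM in control monosomes over both crosses. Its log2 fold change was -2.28 (SE 0.117, adjusted p = 8.94e-13) in LoF controls and -2.36 (SE 0.113, adjusted p = 1.29e-12) in T532M controls. Azin1 (ENSMUSG00000037458.15, chr15:38487427-38519266, minus strand), the antizyme inhibitor, was at 271, 301 and 295 CPM in LoF control polysomes against 148, 164 and 139 CPM in monosomes. In T532M controls it was at 333, 292 and 318 CPM in polysomes against 154, 191 and 155 CPM in monosomes. Every control polysome library was above every control monosome library. The log2 fold change was 0.94 (SE 0.136, adjusted p = 3.10e-06) in LoF controls and 0.93 (SE 0.134, adjusted p = 4.12e-06) in T532M controls, so Azin1 was higher in scaled polysome levels. Before scaling, in LoF control pool 1 Azin1 took 8522 of 45154717 read pairs in polysomes and 8333 of 44573081 in monosomes. In T532M control pool 2 it took 8581 of 48927429 in polysomes and 11832 of 49049947 in monosomes, a lower share. Its sign in that pool thus rests on the scaling.

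The enzymes that make spermidine and spermine differed in their distribution. Amd1 (ENSMUSG00000075232.6, chr10:40287458-40302188, minus strand), the S-adenosylmethionine decarboxylase, was at 19.6, 22.1 and 20.2 CPM in LoF control polysomes against 87.0, 115 and 96.6 CPM in monosomes and 46.5, 38.1 and 37.2 CPM in input. In T532M controls it was at 18.7, 21 and 19.5 CPM in polysomes against 98.1, 97.0 and 102 CPM in monosomes and 29.7, 50.2 and 37.4 CPM in input. The 3 fractions of Amd1 thus did not overlap in either cross, with monosomes highest. Its log2 fold change between polysome and monosome was -2.27 (SE 0.154, adjusted p = 6.03e-11) in LoF controls and -2.31 (SE 0.146, adjusted p = 5.11e-11) in T532M controls. The near-identical copy Amd2 averaged 0.686 CPM over all libraries, and reads shared between the copies cannot be assigned with certainty.

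Srm (ENSMUSG00000006442.10, chr4:148591503-148594993, plus strand), spermidine synthase, was at 18.9, 27.5 and 23.3 CPM in LoF control polysomes against 33.6, 24.2 and 29.7 CPM in monosomes and 68.4, 73.5 and 66.9 CPM in input. In T532M controls it was at 23.3, 22.1 and 24.3 CPM in polysomes against 27.7, 31.5 and 26.7 CPM in monosomes and 80.5, 70.5 and 68.2 CPM in input. Srm was low in both gradient fractions relative to input, and its polysome and monosome libraries overlapped in LoF controls. The log2 fold change between polysome and monosome was -0.33 (SE 0.194, adjusted p = 0.124) in LoF controls, which did not pass, and -0.29 (SE 0.106, adjusted p = 0.0200) in T532M controls, which passed, but had an adjusted p of 0.0564 under RLE scaling and 0.0604 with no filter on low counts. With no filter the LoF value passed, at -0.33 with an adjusted p of 0.0473. Without LoF control pool 2 it was -0.57 with an adjusted p of 0.0369. Without the 3 LoF pools over 10 CPM Ttr, which leaves 1 control pool that is assumed to vary like the other groups, the sign turned, at 0.20 with an adjusted p of 0.364. In T532M controls the call was lost without control pool 1 (-0.28 with an adjusted p of 0.0634) and without control pool 2 (-0.18 with an adjusted p of 0.223).

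Sms (ENSMUSG00000071708.11, chrX:157443855-157492287, minus strand), spermine synthase, ranged from 25.1 to 33.6 CPM in control polysomes and from 72.3 to 78.9 CPM in control monosomes. Its log2 fold change was -1.37 (SE 0.120, adjusted p = 2.77e-09) in LoF controls and -1.31 (SE 0.119, adjusted p = 8.38e-09) in T532M controls. The pseudogene copy Sms-ps averaged 2.99 CPM. Sat1 (ENSMUSG00000025283.15, chrX:155213132-155216449, minus strand), the acetyltransferase that removes spermidine and spermine, was at 1.69, 2.44 and 2.47 CPM in LoF control polysomes against 22.4, 23.4 and 23.4 CPM in monosomes. In T532M controls it was at 1.76, 2.65 and 3.23 CPM in polysomes against 21.1, 24.6 and 20.3 CPM in monosomes. The log2 fold change was -3.38 (SE 0.158, adjusted p = 2.47e-13) in LoF controls and -3.09 (SE 0.186, adjusted p = 2.42e-11) in T532M controls. Sat1 is the member with the fewest reads: its polysome libraries held 42 to 136 read pairs, and the exact 95% Poisson interval of the lowest, 30.3 to 56.8, covers counting error only.

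**Figure D2:**
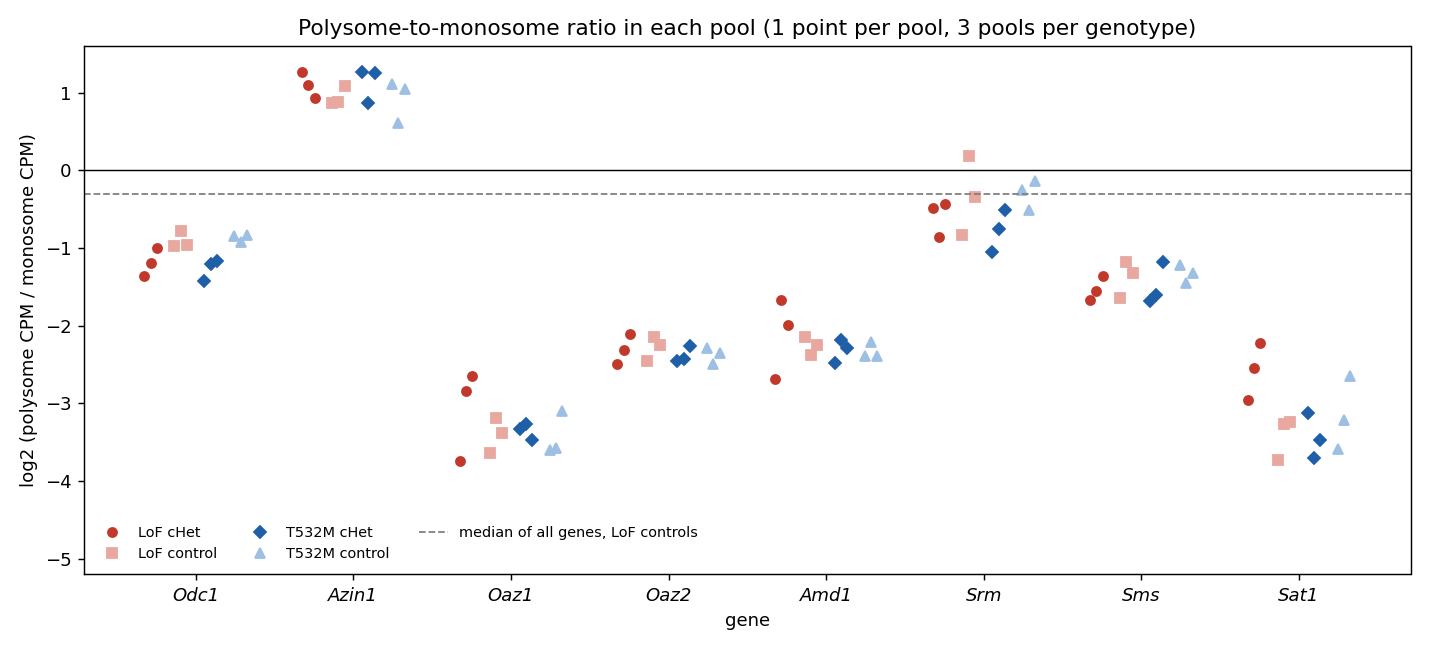
Polysome-to-monosome ratio of each gene in each of the 12 pools, on a log2 scale. The solid line marks equal scaled CPM in both fractions, and the dashed line is the median log2 fold change of all genes in LoF controls, -0.31. Azin1 lies above 0 in all 12 pools, with linear ratios of 1.53 to 2.40, and Oaz1 and Sat1 lie lowest.

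Over all 12 pools of both genotypes the linear polysome-to-monosome ratio ran from 1.53 to 2.40 for Azin1, with a median of 2.09. It ran from 0.0745 to 0.1596 for Oaz1, from 0.0753 to 0.215 for Sat1, from 0.177 to 0.233 for Oaz2, from 0.155 to 0.313 for Amd1, from 0.312 to 0.442 for Sms and from 0.372 to 0.583 for Odc1. Srm ran from 0.480 to 1.14, on both sides of the all-gene median. The ranges of Azin1 and the other 7 members did not overlap.

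Over all genes, polysome-over-monosome fold changes were higher for longer coding sequences. In LoF controls the median log2 fold change of polysome over monosome was -1.45 in the quartile of genes with the shortest annotated coding sequence (78 to 888 bases), -0.13 in the next (891 to 1416 bases), 0.71 in the one after it and 1.61 in the longest. All 8 members fall in the lower 2 quartiles, with coding sequences of 516 bases for Sat1 to 1386 bases for Odc1. Oaz1 and Oaz2 are placed by their full annotated length (684 and 570 bases), which is read only after the frameshift. They have 68 and 32 codons before the first stop, and the length read in these samples was not measured. Within its own quartile in LoF controls, Amd1 stood at percentile 5.78, Oaz1 at percentile 8.03 and Sat1 at percentile 8.14. Sms stood at percentile 18.3, Oaz2 at percentile 27.6, Odc1 at percentile 28.5, Srm at percentile 44.5 and Azin1 at percentile 76.2. Amd1, with 1005 bases, thus lay below the median of the shortest quartile as well as that of its own. Azin1 (1347 bases) and Odc1 (1386 bases) are close in coding length and lay on opposite sides of 0.

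**Figure D3:**
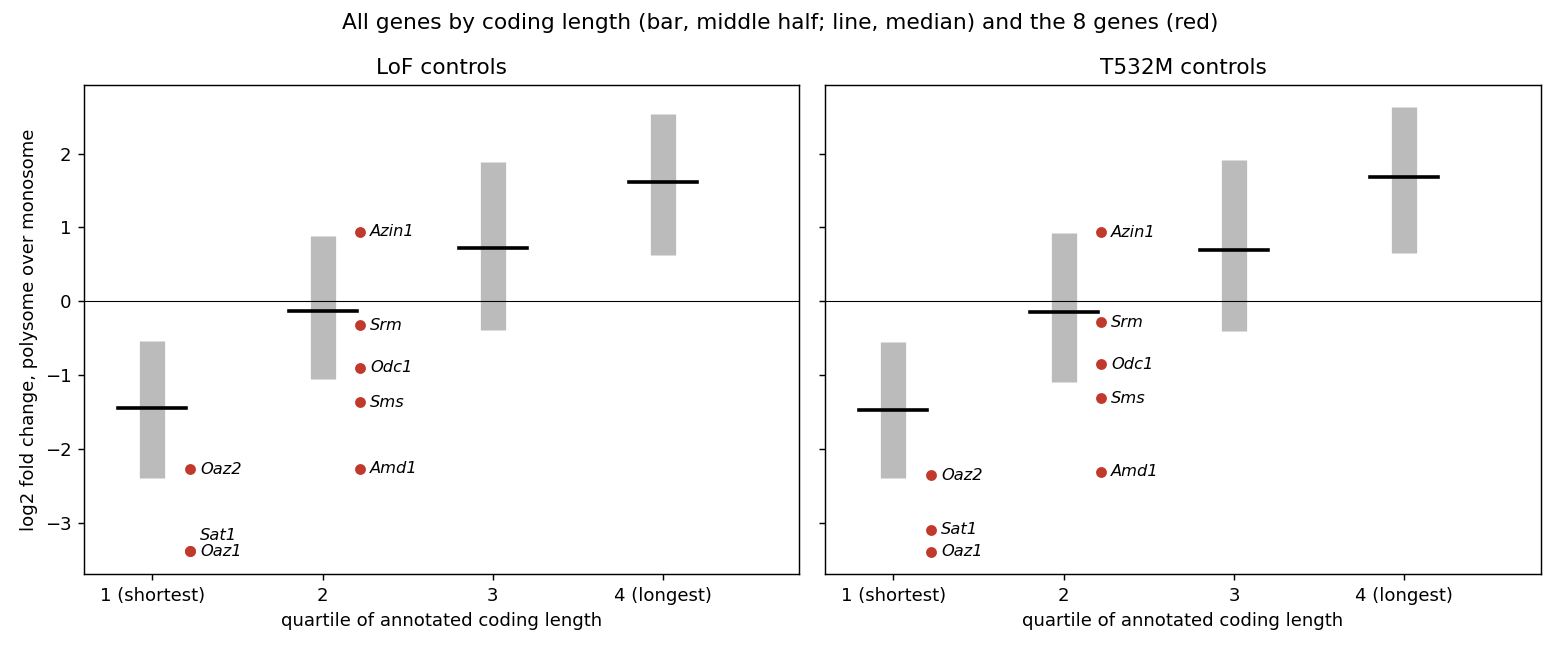
Log2 fold change of polysome over monosome in LoF controls and T532M controls, by quartile of annotated coding length. Grey bars span the middle 50% of genes, black lines are medians and red points are the 8 genes. Amd1 and Sms lie under the grey bar of their quartile in both crosses, Oaz1 and Sat1 under that of the shortest genes, and Azin1 above 0.

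Set against input, all 8 members were past the threshold in polysomes of both control groups, 1 higher and 7 lower, beside 79.3% of genes in the LoF cross (36.5% higher and 42.8% lower) and 79% in the T532M cross (36.6% higher and 42.4% lower). Azin1 was 0.77 (SE 0.135, adjusted p = 3.42e-05) in LoF controls on the log2 scale, and Srm was -1.59 (SE 0.196, adjusted p = 3.83e-07). Monosome against input, a comparison added after the levels had been seen, parted the members differently. Amd1 was higher in monosomes by 1.28 in LoF controls and 1.29 in T532M controls, and Oaz2 by 0.51 and 0.38. Srm was lower, at -1.27 in LoF controls and -1.40 in T532M controls. These 6 log2 values all passed. In this comparison 3 of 8 members passed in LoF controls, beside 62.7% of genes, and 4 of 8 in T532M controls, beside 63.1% of genes. The fourth was Sms, at 0.34 (SE 0.116, adjusted p = 0.0160), which was lost without control pool 1 (0.27 with an adjusted p of 0.116) and without control pool 2 (0.34 with an adjusted p of 0.0635). With pool as a replicate block Odc1 also passed in T532M controls, at -0.22 with an adjusted p of 0.0480. Without LoF cHet pool 1, whose libraries share the fit, Odc1 (-0.20 with an adjusted p of 0.0323) and Oaz1 (0.31 with an adjusted p of 0.00669) passed in LoF controls.

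Reads in introns were counted with those in exons. Azin1 and Amd1 input libraries of T532M controls ran in the same order as Ddx3x: Azin1 was at 131, 191 and 159 CPM, Amd1 at 29.7, 50.2 and 37.4 CPM and Ddx3x at 49.0, 148 and 109.7 CPM in pools 1, 2 and 3. In LoF controls pool 1 was highest for Azin1 (191, 148 and 165 CPM), Amd1 and Ddx3x (153, 88.8 and 94.8 CPM). In cHet input the order was shared only in part: Azin1 followed Ddx3x in LoF cHet and Amd1 did in T532M cHet. Amd1 did not in LoF cHet, at 34.5, 34.6 and 35.0 CPM beside 61.1, 115 and 90.3 CPM of Ddx3x. Azin1 did not in T532M cHet, at 187.3, 187.7 and 166.8 CPM beside 241, 201 and 167 CPM of Ddx3x. The part of this order in the input results was not tested.

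The design next asks whether these RNAs differed between cHet and control in each fraction. In T532M monosomes 2 of 8 members passed the threshold, both higher in cHet, beside 1.03% of all genes (0.976% higher, 0.0548% lower). In the other 5 genotype comparisons within a fraction no member passed, beside 0% of genes in LoF input, LoF polysomes and T532M polysomes, 0.0108% in LoF monosomes and 0.00548% in T532M input by the same edgeR test. At an unadjusted p under 0.05 the shares of genes were 10.8%, 3.23% and 7.92% in the 3 comparisons with 0%, and DESeq2 gave 0.496%, 0% and 0.0548%.

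**Figure D4:**
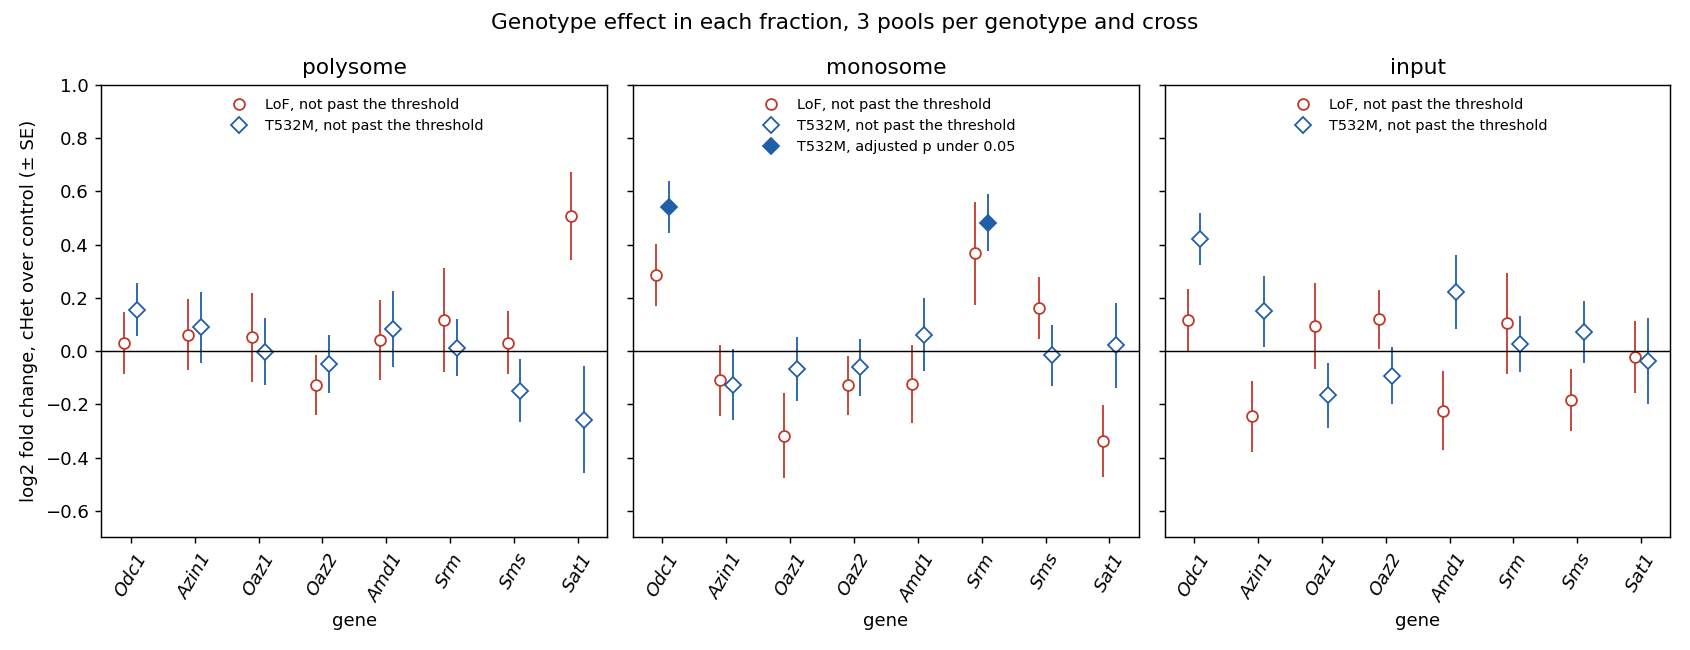
Log2 fold change of cHet over control for the 8 genes in each fraction, in the LoF cross (red circles) and the T532M cross (blue diamonds). Bars are standard errors derived from the test statistic. Filled symbols have an adjusted p under 0.05. Odc1 and Srm in T532M monosomes, at 0.54 and 0.48, are the filled ones.

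Odc1 was at 458, 438 and 472 CPM in T532M cHet monosomes against 287, 329 and 326 CPM in control monosomes. Every cHet library was above every control library. The log2 fold change was 0.54 (SE 0.0983, adjusted p = 0.0112), or 1.46-fold on the linear scale. With 1 pool left out at a time the log2 fold change stayed between 0.49 and 0.57, but the adjusted p was 0.0613 without cHet pool 1, 0.0832 without cHet pool 2, 0.0521 without cHet pool 3, 0.117 without control pool 1 and 0.133 without control pool 3, against 0.0199 without control pool 2. It was 0.0625 with no filter on low counts, by edgeR.

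Srm was at 45.1, 38.9 and 35.8 CPM in T532M cHet monosomes against 27.7, 31.5 and 26.7 CPM in control monosomes, again without overlap. The log2 fold change was 0.48 (SE 0.105, adjusted p = 0.0331). The adjusted p from edgeR was 0.242 without cHet pool 1, 0.171 without cHet pool 2, 0.157 without control pool 1 and 0.346 without control pool 3, against 0.0475 without cHet pool 3 and 0.0206 without control pool 2. It was 0.0794 with no filter on low counts. Choroid plexus markers (5 of 5 detected) summed to 0.779 to 40.5 CPM in T532M cHet monosomes and 1.66 to 3.62 CPM in control monosomes, with the high value in cHet pool 1. Without that pool the log2 fold change was 0.53 for Odc1 and 0.38 for Srm. Erythroid markers (6 of 6 detected) summed to 938 to 1109 CPM in cHet monosomes and 757 to 1190 CPM in control monosomes, and their part in the result was not tested. CT010467.1, counted here among the ribosomal RNA genes, took 0.591 to 0.901% of reads in T532M cHet monosomes and 0.42 to 0.554% in control monosomes, without overlap. With mitochondrial and ribosomal RNA genes left out, CT010467.1 among them, Odc1 was at 0.54 with an adjusted p of 0.0108 and Srm at 0.48 with an adjusted p of 0.0314.

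The other 6 members were within 0.130 log2 units of control in T532M monosomes, with adjusted p-values of at least 0.769 by edgeR. Over the 8 members the median log2 fold change was 0.00, beside -0.05 over all genes. In this fraction the cHet and control libraries did not overlap for 21.5% of all genes (8.54% with cHet above, 13% below), and for 2 of 8 members, both with cHet above.

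Odc1 in T532M input was at 476, 465 and 494 CPM in cHet against 346, 364 and 345 CPM in controls. The libraries did not overlap, as for 13.3% of all genes in T532M input (6.65% with cHet above, 6.61% below). The log2 fold change of Odc1 was 0.42 (SE 0.0981, adjusted p = 0.181), which did not pass by edgeR. The summed dorsal cortex markers did not overlap in these libraries either, at 1924 to 2277 CPM in cHet and 2289.8 to 2565 CPM in controls, and their part in the result was not tested. DESeq2 on the same libraries gave an adjusted p of 0.00224 with a log2 fold change of 0.41, and the authors' deposited table gives Odc1 in T532M input a log2 fold change of 0.40 with an adjusted p of 0.00302. Srm in T532M input was at 74.0, 77.2 and 76.2 CPM in cHet against 80.5, 70.5 and 68.2 CPM in controls, which is 0.03 (SE 0.104, adjusted p = 0.946) on the log2 scale. Its input libraries overlapped. In the authors' deposited table the monosome column, which over the 8 members lies within 0.0158 of the fold in monosomes relative to that in input, gives Srm 0.46 with an adjusted p of 0.107 and Odc1 0.13 with an adjusted p of 0.748 in the T532M cross.

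**Figure D5:**
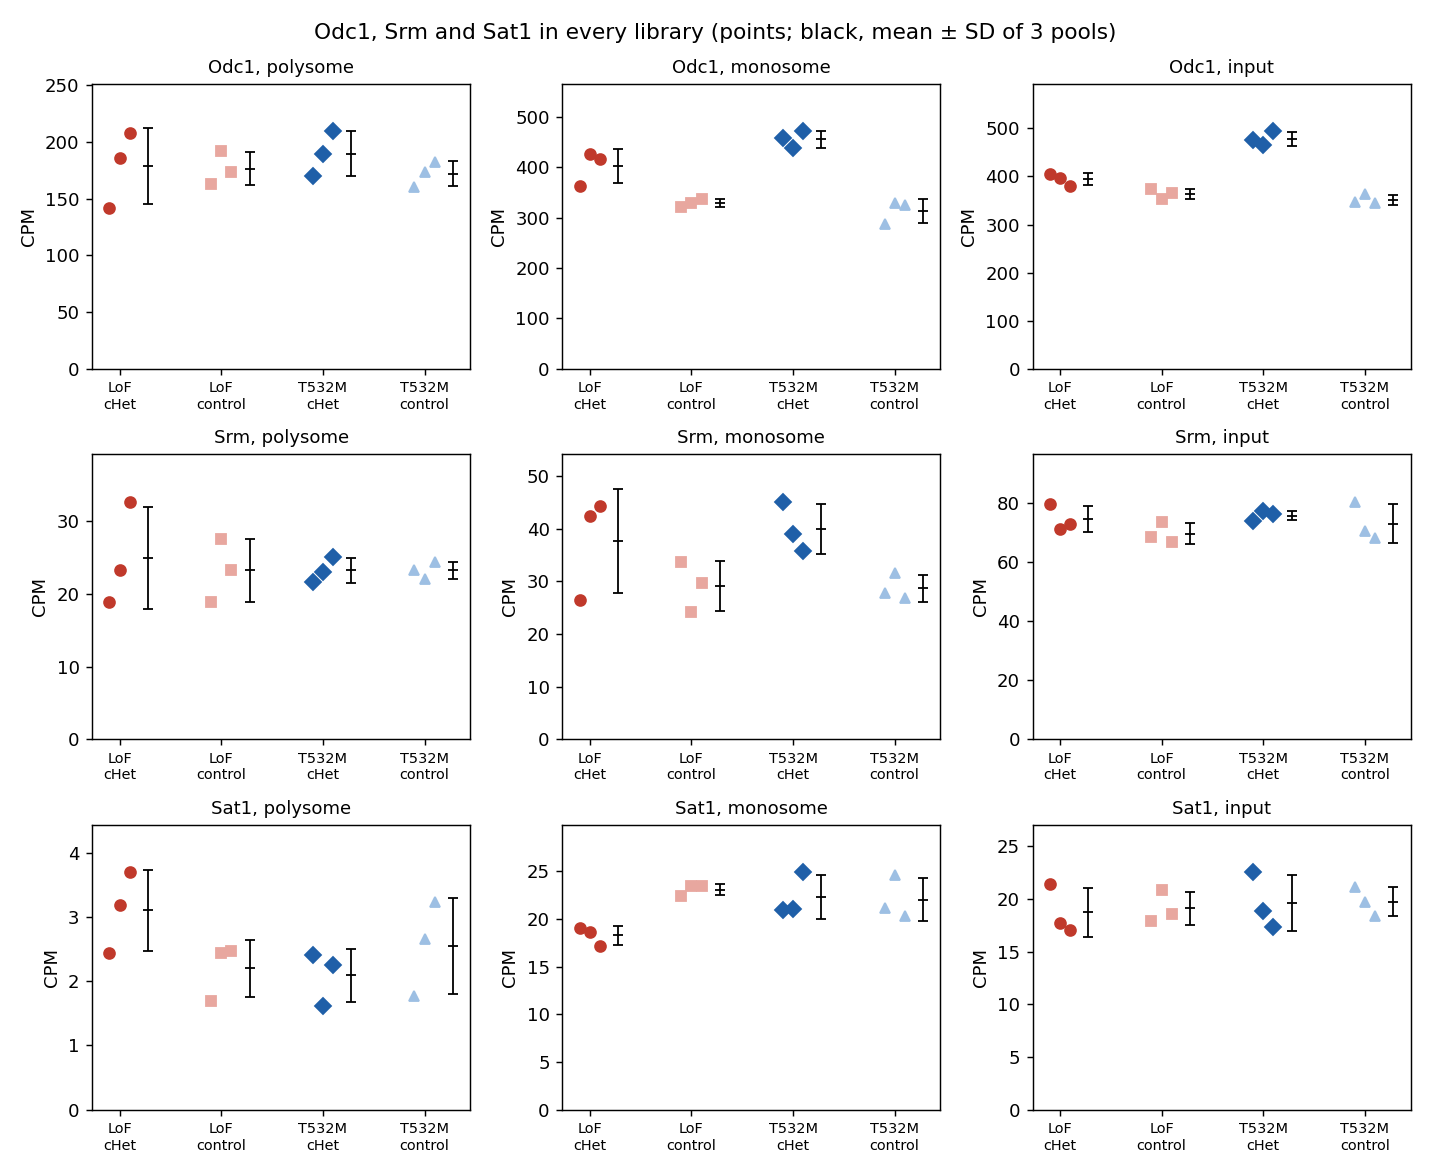
CPM of Odc1, Srm and Sat1 in every library, by fraction and group, on axes that start at 0. Black marks are means ± SD of 3 pools. The T532M cHet libraries of Odc1 lie above the T532M control libraries in monosome and input, and the polysome libraries of both genotypes overlap.

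In polysomes the same genes showed no such separation. Odc1 was at 170.2, 189.7 and 209.6 CPM in T532M cHet polysomes against 160.1, 174 and 182 CPM in control polysomes, which is 0.16 (SE 0.0983, adjusted p = 0.708) on the log2 scale. Srm was at 21.7, 23.01 and 25 CPM in T532M cHet polysomes against 23.3, 22.1 and 24.3 CPM in control polysomes, which is 0.01 (SE 0.107, adjusted p = 0.991) on the log2 scale. The genotypes overlapped for both genes.

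The polysome-to-monosome ratio of a pool sets the 2 fractions of 1 lysate side by side. For Odc1 it was 0.372, 0.433 and 0.444 in T532M cHet pools against 0.558, 0.527 and 0.559 in control pools, and 0.390, 0.436 and 0.498 in LoF cHet pools against 0.510, 0.583 and 0.514 in control pools. The cHet pools were below the control pools in both crosses. For Srm it was 0.480, 0.591 and 0.698 in T532M cHet pools against 0.841, 0.700 and 0.910 in control pools. Pools of the 2 genotypes did not overlap for 15.5% of genes in the T532M cross (8.52% with cHet below) and 8.46% in the LoF cross (3.4% above, 5.06% below), against 2 of 8 members in each cross. The test of this difference, the genotype effect in polysomes minus that in monosomes, gave -0.39 (SE 0.139, adjusted p = 0.564) for Odc1 and -0.47 (SE 0.150, adjusted p = 0.475) for Srm in the T532M cross, and -0.26 (SE 0.165, adjusted p = 1.00) for Odc1 in the LoF cross. None passed, beside 0.0603% of genes in the T532M cross and 0% in the LoF cross by edgeR (for the LoF cross 3.02% at an unadjusted p under 0.05 and 0% by DESeq2). Set against input in place of monosomes, no member passed either, beside 0.0108% of genes in the LoF cross and 0% in the T532M cross (6.1% at an unadjusted p under 0.05 and 0% by DESeq2).

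In the LoF cross no member passed in a fraction when all 6 pools were used. Odc1 was at 364, 427 and 417 CPM in LoF cHet monosomes against 321, 330.1 and 338 CPM in control monosomes, without overlap, at 0.29 (SE 0.117, adjusted p = 1.00) on the log2 scale. Srm was at 26.4, 42.4 and 44.2 CPM in cHet against 33.6, 24.2 and 29.7 CPM in control monosomes, with overlap, and its log2 fold change was 0.37 (SE 0.192, adjusted p = 1.00). Without the 3 LoF pools over 10 CPM Ttr, which leaves 2 cHet pools and 1 control pool and assumes that the lone control pool varies like the other groups, the Srm value was 0.83 with an adjusted p of 0.0122.

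Sat1 was at 19, 18.6 and 17.2 CPM in LoF cHet monosomes against 22.4, 23.4 and 23.4 CPM in control monosomes, and at 2.44, 3.18 and 3.69 CPM in cHet polysomes against 1.69, 2.44 and 2.47 CPM in control polysomes. The cHet libraries were lower in monosomes without overlap, and the polysome libraries overlapped by a narrow margin. Its polysome-to-monosome ratio was 0.128, 0.171 and 0.215 in LoF cHet pools against 0.0753, 0.104 and 0.105 in control pools, without overlap. The genotype effect in polysomes minus that in monosomes was 0.85 (SE 0.213, adjusted p = 1.00) for Sat1 by edgeR's quasi-likelihood fit across all genes, so it did not pass after adjustment. In the authors' deposited table Sat1 has a log2 fold change of 0.50 (p = 0.0205, adjusted p = 0.923) in the LoF polysome column and -0.36 (p = 0.0421, adjusted p = 1.00) in the monosome column, both relative to input.

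Oaz1 was at 198, 167 and 169 CPM in LoF cHet monosomes against 227, 219.8 and 218 CPM in control monosomes, and Oaz2 at 134, 139 and 134 against 153, 148 and 143 CPM. The cHet libraries of both antizymes were below all control libraries. On the log2 scale Oaz1 was at -0.32 (SE 0.161, adjusted p = 1.00) and Oaz2 at -0.13 (SE 0.1104, adjusted p = 1.00). Sms was at 80.0, 86.3 and 87.1 CPM in cHet against 78.2, 76.0 and 72.3 CPM in control monosomes, with cHet above, at 0.16 (SE 0.117, adjusted p = 1.00). With Odc1 and Sat1, 5 of 8 members did not overlap in LoF monosomes (2 with cHet above, 3 below), beside 10.6% of genes (5.6% above, 4.97% below), and none of the 5 passed the test. Erythroid markers summed to 941 to 1576 CPM in LoF cHet monosomes and 1607 to 2087 CPM in control monosomes, also without overlap, and mitochondrially encoded genes took 4.97 to 6.91% of reads in cHet and 6.47 to 10.2% in control monosomes, with overlap. Their part in these values was not tested.

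In LoF input, Amd1 was at 34.5, 34.6 and 34.97 CPM in cHet against 46.5, 38.1 and 37.2 CPM in controls, and Odc1 at 404, 397 and 380.0 CPM against 374, 353 and 365 CPM. Neither pair overlapped, and Amd1 was at -0.22 (SE 0.147, adjusted p = 0.708) on the log2 scale and Odc1 at 0.12 (SE 0.117, adjusted p = 0.886). In the same libraries CT010467.1 took 4.43 to 5.26% of reads in cHet and 0.565 to 1.70% in controls, and mitochondrially encoded genes 1.72 to 2.16% in cHet and 2.39 to 3.38% in controls, both without overlap. With mitochondrial and ribosomal RNA genes left out, the log2 fold change was -0.22 for Amd1 and 0.12 for Odc1. Libraries of the 2 genotypes did not overlap for 11.2% of genes in LoF input (4.85% with cHet above, 6.35% below), 6.28% in LoF polysomes, 13.3% in T532M input and 8.8% in T532M polysomes, against 2, 0, 2 and 0 of the 8 members.

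Over all 8 members, log2 fold changes of cHet over control in polysomes ran from -0.13 for Oaz2 to 0.51 for Sat1 in the LoF cross, and from -0.26 for Sat1 to 0.16 for Odc1 in the T532M cross. In input they ran from -0.25 for Azin1 to 0.12 for Oaz2 in the LoF cross, and from -0.17 for Oaz1 to 0.42 for Odc1 in the T532M cross. The values of Odc1 and Srm were above 0 in all 3 fractions of both crosses, but several were near 0. Srm was at 0.01 (SE 0.107) in T532M polysomes and 0.03 (SE 0.104) in T532M input, and Odc1 at 0.03 (SE 0.117) in LoF polysomes. With 1 pool left out, each of these values, and Srm in LoF polysomes, fell below 0 in some fits. Sat1 in polysomes was the member with the widest gap between crosses. Azin1 was at 334, 283 and 279.8 CPM in LoF cHet polysomes against 271, 301 and 295 CPM in control polysomes, and at 313, 309.9 and 370.3 CPM in T532M cHet polysomes against 333, 292 and 318 CPM in control polysomes. The genotypes overlapped in both crosses.

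The genotype effects of the crosses were set against each other directly, as LoF minus T532M in a fit over all 36 libraries. No member passed in any fraction, beside 0.0105% of 19121 genes in input and 0% in monosomes and polysomes by edgeR (6.69% and 5.59% at an unadjusted p under 0.05, and 0.209% and 0.0366% by DESeq2). For Odc1 the difference was -0.26 (SE 0.147, adjusted p = 0.795) in monosomes and -0.32 (SE 0.147, adjusted p = 0.265) in input, and for Srm -0.12 (SE 0.227, adjusted p = 0.992) in monosomes. The rise of Odc1 and Srm in T532M monosomes was thus not shown to differ from the LoF values. Only the LoF controls lacked Cre, so allele and Cre cannot be told apart in this comparison. For Amd1 the input difference was -0.46 (SE 0.214, adjusted p = 0.273), and without T532M control pool 2 it was -0.68 with an adjusted p of 0.0394. For Sat1 the polysome difference was 0.77 (SE 0.266, adjusted p = 0.666).

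Of 23 other genes of the pathway in 5 lists, 19 were tested in the LoF cross and 20 in the T532M cross, and none passed in a genotype comparison or in the difference between crosses. The smallest adjusted p by edgeR was 0.0601, for the polyamine transporter Atp13a3 in input, LoF minus T532M, a gene named after its values were seen. Between fractions they went both ways. In LoF control polysomes against monosomes 5 were higher and 10 lower of 19, and in T532M controls 5 were higher and 11 lower of 20. These 15 of 19 and 16 of 20 stand beside 81.2% of all genes in LoF controls (36.4% higher, 44.9% lower) and 79.9% in T532M controls (36% higher, 43.9% lower), so the shares are near those of all genes. All 3 tested hypusine genes were lower in both crosses. Among them, in LoF controls, Eif5a2, a translation factor that carries hypusine (a residue made from spermidine), was at -2.003 (SE 0.248, adjusted p = 4.02e-07). Dhps, which starts hypusine synthesis, was at -1.55 (SE 0.162, adjusted p = 3.85e-08) in LoF controls. Of the 4 transport genes 2 were higher and 1 lower, with the amino acid carrier subunit Slc3a2 at 2.31 (SE 0.120, adjusted p = 1.08e-12) and the vesicular polyamine transporter Slc18b1 at -2.15 (SE 0.126, adjusted p = 6.13e-12). Of 8 tested genes for precursor and methyl donor supply, 3 were higher and 3 lower in LoF controls, with the S-adenosylmethionine synthase Mat2a at 2.07 (SE 0.114, adjusted p = 2.69e-12) and arginase Arg2 at 1.96 (SE 0.216, adjusted p = 8.42e-08). Of the 3 degradation genes 2 were lower, Smox (spermine oxidase) at -1.06 (SE 0.1002, adjusted p = 8.52e-09) and Sat2 at -0.73 (SE 0.315, adjusted p = 0.0388). Azin2, the second antizyme inhibitor, was lower at -1.61 (SE 0.176, adjusted p = 6.88e-08), on the other side from Azin1.

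Myc and Mycn are known activators of Odc1 and Srm transcription. In T532M monosomes Myc was at 9.04, 8.54 and 7.86 CPM in cHet against 9.51, 9.32 and 9.51 CPM in controls, and Mycn at 60.5, 67.4 and 66.6 CPM against 56.4, 77.8 and 60.4 CPM. On the log2 scale Myc was at -0.15 (SE 0.117, adjusted p = 0.661) and Mycn at 0.00 (SE 0.119, adjusted p = 0.998), so neither passed. In T532M input Myc was at 14.4, 16.5 and 16.6 CPM in cHet against 17.4, 16.9 and 18.7 CPM in controls. Mycn was at 97.8, 113 and 111 CPM against 98.2, 113 and 93.5 CPM, with overlap. Myc was below all controls in both fractions, as were 13% of genes in monosomes and 6.61% in input. Their part in the Odc1 and Srm values was not tested.

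The genes whose pattern over the 12 groups was most like that of each member were taken as those with the smallest root mean square distance of centred log2 CPM means, among 11506 genes of at least 2 CPM. Nearest to Odc1 were Rap2b and Rgma (distances 0.0966 and 0.0985), to Srm Gins4 and Camk1 (0.0754 and 0.0787), and to Azin1 Nup54 and Rad18 (0.0643 and 0.0813). Nearest to Oaz1 were Tomm22 and Tm2d1 (0.0729 and 0.0759), to Oaz2 Fastk and Tomm40l (0.0502 and 0.0553), and to Amd1 Nudt4 and Wasf3 (0.0770 and 0.0906). Nearest to Sms were Kantr and Rnf13 (0.0545 and 0.0750), and to Sat1 Hmgn3 and Coa4 (0.108 and 0.114). No member was among the 2 nearest genes of another, and the closest pair of members was Oaz1 and Sat1, at 0.198.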

How the data were processed

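The data are 36 RNA libraries, from 12 pools of 2 embryonic cortices with 3 fractions each. The authors deposited raw counts, in read pairs per gene, for 55487 genes. The file headers give featureCounts 2.0.3, whole gene spans with their introns, strand setting 2 (reverse) and the GENCODE M25 annotation of GRCm38. Further tools in the submitters' processing notes are STAR 2.7.11a (with FastQC 0.11.7), Subread 2.0.3 and DESeq2 1.34.0. The authors' deposited tables, 1 per cross, hold log2 fold changes and p-values for each fraction. They also hold a signal per library, which the authors made by dividing counts by a size factor and which was not tested here.

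Counts were tested with edgeR 4.0.16 in R 4.3.3 (quasi-likelihood test, TMM scaling, filterByExpr, Benjamini-Hochberg over all genes of the fit). A fit covered the 18 libraries of a cross, with a term per group, and the crosses were compared in a fit of all 36. The main fit has no term for pool, so the fractions of 1 pool enter it as separate libraries. P-values thus measure the spread between libraries within groups. No label ties pools to litters or days. Depth was 36999365 to 57935512 read pairs per library, which leaves Sat1 in polysomes as the member with the fewest reads. Alternatives were RLE scaling, DESeq2 1.42.0, no filter on low counts, totals without mitochondrial and ribosomal RNA genes, only the libraries compared, the replicate number or pool as a block, each pool left out, and LoF pools over 10 CPM Ttr left out. That fractions with the same number, 1 to 3, share a pool (same animals) is taken from the protocol, and the labels do not state it. Between fractions of such a pool, deviations from the group mean correlated at 0.0711 to 0.291 (LoF) and 0.0912 to 0.401 (T532M). Set against another fraction, a library was closest to its own number in 24 of 36 LoF and 32 of 36 T532M comparisons.

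All 8 members are named in every comparison in which they are described, whatever their p. Of 5 lists of other pathway genes, those past the threshold in a genotype comparison and up to 2 per list with the largest fold between fractions were to be named. Ddx3x, Amd2, Myc and Mycn are comparators. Genes of the nearest patterns were taken by distance of centred log2 CPM means (offset 0.5 CPM), among genes of at least 2 CPM with an assigned name. The members, lists and tests were chosen with earlier results of these data known. Sequences come from GENCODE M21 transcripts of GRCm38.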

Additional observations from a re-analysis of the deposited data

How the results depend on the processing

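Of 2032 settings over the 8 members, 1885 kept the direction and the side of the threshold, 18 lost it, 15 gained it and 114 changed the sign of a value that passed in neither setting. No value past the threshold changed sign. The members past the threshold changed in 8 comparisons. They numbered 5 with DESeq2 and 5 with the compared libraries alone against 3 in LoF control monosomes over input, and 3 to 5 with 1 pool left out. In LoF cHet monosomes 1 passed without the pools over 10 CPM Ttr, against 0, and in T532M cHet input 1 with DESeq2, against 0. In T532M cHet monosomes 0 passed with no filter on low counts and 1 with the replicate number as a block, against 2, and 0 to 2 with 1 pool left out. In input, LoF minus T532M, 0 to 1 passed with 1 pool left out, against 0. In polysomes over monosomes Srm was gained in LoF controls with no filter on low counts (8 against 7; 7 to 8 with 1 pool left out) and lost in T532M controls with RLE scaling and with no filter (7 against 8; 7 to 8 with 1 pool left out). In T532M control monosomes over input 5 passed with DESeq2 and with pool as a block, against 4, and 3 to 4 with 1 pool left out. Where a call was lost the cause was not tested.

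Counts over all genes moved more in the genotype comparisons. With DESeq2 they were 92 against 0 in LoF input, 5 against 2 in LoF monosomes, 9 against 2 for the LoF effect in polysomes over input, 123 against 1 in T532M input, 564 against 188 in T532M monosomes, 10 against 0 in T532M polysomes, 83 against 11 for the T532M effect in polysomes over monosomes, and 681 against 2, 40 against 0 and 7 against 0 for LoF minus T532M in input, monosomes and polysomes. With no filter on low counts they were, in the same order of comparisons, 967, 33, 193, 157, not moved, 58, 7, 1163, 36 and 51, with 41 against 0 in LoF polysomes and 2 against 0 for the LoF effect in polysomes over monosomes. RLE scaling gave 1 in T532M polysomes and 0 for the T532M effect in polysomes over monosomes. With the compared libraries alone the counts were 1 in LoF monosomes, 1 for the LoF effect in polysomes over input, 0 in T532M input, 307 in T532M monosomes, 0 for the T532M effect in polysomes over monosomes and 0 in input, LoF minus T532M. Without mitochondrial and ribosomal RNA genes the LoF effect in polysomes over input had 0. Without the LoF pools over 10 CPM Ttr the counts were 62, 940 and 70 in LoF input, monosomes and polysomes, 16 for the LoF effect in polysomes over input and 203 over monosomes. With 1 pool left out they ran from 0 to 15, 1 to 180 and 0 to 12 in LoF input, monosomes and polysomes, 0 to 18 for the LoF effect in polysomes over input, 0 to 543, 7 to 636 and 0 to 139 in T532M input, monosomes and polysomes, 0 to 0 for the T532M effect in polysomes over monosomes, and 1 to 1697, 0 to 43 and 0 to 2 for LoF minus T532M in input, monosomes and polysomes.

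With pool as a replicate block the genes past the threshold were 0 for the LoF effect in polysomes over input and 22 for the T532M effect in polysomes over monosomes, and Odc1 in T532M control monosomes over input was the only member whose call changed. The replicate number does not pair the genotypes by the labels. Deviations of same-numbered cHet and control libraries correlated at -0.269 to 0.0821 in the LoF cross and -0.134 to 0.143 in the T532M cross, and 2 of 18 and 12 of 18 libraries were closest to their own number. With the number as a block the adjusted p in T532M monosomes was 0.0416 for Odc1 and 0.0716 for Srm by edgeR, and the genes past the threshold were 1 in LoF monosomes and 1 in input, LoF minus T532M.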
